A study of Mus musculus with 4 samples.

Results

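Wfdc18, Tff2, Gkn3, Gpx5 and Tenm4 are 5 of the 16390 genes on an array that was hybridised with RNA from sorted mouse small intestinal cells, and they were picked by their strong signal in tumor samples on these same arrays. Their tumor against normal values are therefore given as a description. Each of the 5 genes has 1 probe, which the array lists as Expi for Wfdc18, Odz4 for Tenm4 and 1190003M12Rik for Gkn3. Tff2 and Gkn3 encode peptides known from the stomach; Wfdc18, Gpx5 and Tenm4 are not gastric genes, so the set is referred to by its members.

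There were 4 samples with 1 array each. Dclk1+ tumor cells were pooled from intestinal tumors of 7 mice aged over 16 weeks with the genotype Dclk1CreERT2/+; ApcMin/+, and Dclk1- tumor cells came from 1 such mouse aged 17 weeks. Dclk1+ normal cells came from normal small intestines of 2 Dclk1CreERT2/+ mice and Dclk1- normal cells from 1, all aged 26 weeks. All mice were male and all carried 1 Dclk1 allele with CreERT2, so no sample is free of that allele. The ApcMin allele truncates Apc and is carried in the whole animal, and the tumors are adenomas that arise after the second Apc copy is lost. The protocol names GFP as the sorting signal for Dclk1+ tumor cells, and the sources used here do not describe a gate for the remaining 3. With 1 array in a group there is no spread between replicates and no test: every difference below is between 2 arrays. Tumor and normal samples also differ in age and genotype, which cannot be told apart from histology.

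Wfdc18 encodes a small secreted protein with a WAP four-disulfide core, a fold shared by many protease inhibitors, and is known from the mouse mammary gland. Tff2 is a trefoil peptide and Gkn3 a gastrokine; both are secreted with mucus by neck and gland cells of the mouse stomach, and Tff2 is also made by Brunner's glands and marks metaplastic gastric glands. Gpx5 is a secreted glutathione peroxidase without selenocysteine that is best known from the epididymis. Tenm4 is a teneurin, a large transmembrane protein of cell contacts in the nervous system that can bind latrophilin receptors.

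Promoter windows from RefSeq (GRCm38.p6) show how the starts of 3 of these tumor-high genes differ. Each runs from 250 bases before to 50 bases after the start, on the gene's strand, and capitals mark a match to a searched motif. Wfdc18 lies on the plus strand at chr11:83708754-83709053, Gkn3 on the minus strand at chr6:87388886-87389185 and Gpx5 on the minus strand at chr13:21292637-21292936.
Wfdc18: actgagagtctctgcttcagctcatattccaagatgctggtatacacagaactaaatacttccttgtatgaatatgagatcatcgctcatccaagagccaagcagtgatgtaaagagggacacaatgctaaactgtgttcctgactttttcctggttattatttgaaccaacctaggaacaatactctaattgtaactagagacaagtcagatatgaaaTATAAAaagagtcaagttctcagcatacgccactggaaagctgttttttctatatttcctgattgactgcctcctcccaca
Gkn3: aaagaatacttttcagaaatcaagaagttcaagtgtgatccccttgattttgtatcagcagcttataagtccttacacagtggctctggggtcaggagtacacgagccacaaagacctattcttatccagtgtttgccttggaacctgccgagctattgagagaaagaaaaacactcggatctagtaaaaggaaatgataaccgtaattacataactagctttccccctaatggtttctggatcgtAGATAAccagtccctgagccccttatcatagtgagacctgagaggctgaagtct
Gpx5: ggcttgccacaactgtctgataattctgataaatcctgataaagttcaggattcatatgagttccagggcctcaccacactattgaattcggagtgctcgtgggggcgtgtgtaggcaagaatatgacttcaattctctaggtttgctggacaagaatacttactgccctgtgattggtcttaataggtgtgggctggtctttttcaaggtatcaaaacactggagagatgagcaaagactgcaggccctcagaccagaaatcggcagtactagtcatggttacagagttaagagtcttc
The motifs searched on both strands were CTTTGAA and CTTTGAT for TCF/LEF, the factors of Wnt signalling, TATAAA for a TATA box, TGANTCA for AP-1, AGATAA for GATA factors and TGTTTAC for FOXA factors. The Wfdc18 window held TATAAA on the gene's strand, starting 31 bases before the start, and 13.6% of all 32851 windows hold that motif. The Gkn3 window held AGATAA from 4 bases before the start, a motif found in 11.2% of windows. The Gpx5 window and both Tenm4 windows held none of the motifs searched, and no Tff2 window was available to search. Either TCF/LEF motif is found in 8.65% of windows. The Wfdc18, Gkn3 and Gpx5 windows were 39%, 42.7% and 45% G and C, against a median of 52.7% over all windows (quartiles 45.7% and 61.7%), and Tenm4 stood at 52% and 52.3%.

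The values are brightness. The authors' deposited series table holds normalised intensities on a linear scale, with the median of the listed probes at about 25 on each array, and levels are quoted in them. Log2 differences come from the spot intensities after background correction and quantile normalization, whose offset of 50 makes differences of dim genes smaller. A spot counted as above background if it lay over 2 SD above the average blank spot of its array. In tumor cells that held for 11564 (Dclk1+) and 10914 (Dclk1-) genes, and in normal cells for 12073 (Dclk1+) and 11709 (Dclk1-). Dclk1, the sorting gene, had 61.8 and 9.49 in Dclk1+ and Dclk1- tumor cells, and 736 and 179.8 in Dclk1+ and Dclk1- normal cells: the Dclk1+ sample was brighter in each pair. The epithelial gene Epcam was above background in all 4 samples and dimmer in tumor, with 849.6 and 1436 in Dclk1+ and Dclk1- tumor cells, against 2624 and 3416 in Dclk1+ and Dclk1- normal cells. The sum over 3 epithelial genes was 4638 and 3261 in Dclk1+ and Dclk1- tumor cells, against 21852 and 15742 in Dclk1+ and Dclk1- normal cells. Most of it came from Vil1 (tumor minus normal -1.92 and -2.64 in Dclk1+ and Dclk1- cells). Cdh1, the remaining gene, differed less (-0.03 and -0.37). It had 114 and 144 in Dclk1+ and Dclk1- tumor cells, against 131 and 220 in Dclk1+ and Dclk1- normal cells. The part of these genes in the members' values was not tested. Of 9 tuft cell markers, 8 and 7 were above background in Dclk1+ and Dclk1- tumor cells and 9 and 8 in Dclk1+ and Dclk1- normal cells, and their summed intensity was 13214 and 424 in Dclk1+ and Dclk1- tumor cells, and 56151 and 373 in Dclk1+ and Dclk1- normal cells.

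Wfdc18 had a normalised intensity of 29114 in Dclk1+ tumor and 14359 in Dclk1- tumor cells, against 20.8 in Dclk1+ normal and 18.4 in Dclk1- normal cells. Both tumor samples were bright and both normal samples dim, though in normal cells the spots of 32.8 and 36.7 still stood 14.1 and 12.98 blank SDs over the blanks. Tumor cells were higher than normal cells by 8.20 log2 units among Dclk1+ samples and by 7.68 among Dclk1- samples. These were the highest differences of the 10768 and 10282 genes above background on both arrays of each pair. Its tumor spots of 19163 and 14548.5 lay below the brightest spots of their arrays (45605 and 46521).

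**Figure D1:**
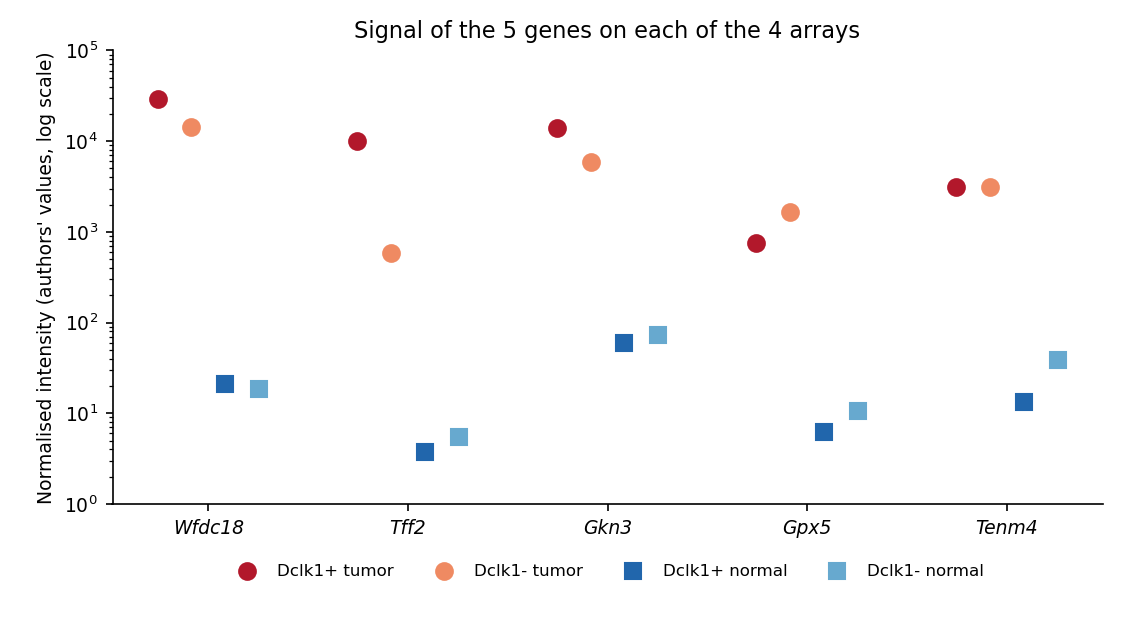
Normalised intensity of the 5 genes (vertical axis, log scale, the authors' values) on each of the 4 arrays, 1 point an array; circles are tumor and squares normal samples. Every gene sits higher in both tumor samples than in both normal samples, and Tff2 has the widest gap between the tumor samples (9925 in Dclk1+ and 581 in Dclk1-).

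Tff2 showed the largest gap between the 2 tumor samples. It had 9925 in Dclk1+ tumor cells and 581 in Dclk1- tumor cells, against 3.77 in Dclk1+ normal and 5.46 in Dclk1- normal cells. In normal cells the probe was close to the background, with a spot 2.55 blank SDs over the blanks in Dclk1+ normal and 3.83 in Dclk1- normal cells. With the limit at 3 SD the Dclk1+ normal spot was not above background. The tumor minus normal difference was 7.06 in Dclk1+ cells, in place 3 of 10768 genes, and 3.39 in Dclk1- cells, where it ranked 23rd of 10282.

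Gkn3 was bright in both tumor samples. It had 13980.1 in Dclk1+ tumor and 5875 in Dclk1- tumor cells, against 59.1 in Dclk1+ normal and 73.4 in Dclk1- normal cells. The normal spots were 40.2 and 51.9 blank SDs over the blanks, so a signal of this probe was also measured in normal epithelium. The tumor minus normal difference was 6.77 in Dclk1+ cells and 5.65 in Dclk1- cells, in place 4 in each pair.

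Tenm4 had nearly the same intensity in both tumor samples. It stood at 3124 in Dclk1+ tumor and 3082 in Dclk1- tumor cells, against 13.3 in Dclk1+ normal and 39.0 in Dclk1- normal cells. The tumor minus normal difference was 5.34 in Dclk1+ cells and 5.21 in Dclk1- cells, in places 9 and 6 of the ranked genes. In normal epithelium its spot was 8.997 blank SDs over the blanks in Dclk1+ and 27.5 in Dclk1- cells.

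Gpx5 was the member with a brighter Dclk1- than Dclk1+ tumor sample beyond 2-fold. It had 745 in Dclk1+ tumor and 1642.5 in Dclk1- tumor cells, against 6.25 in Dclk1+ normal and 10.7 in Dclk1- normal cells. The tumor minus normal difference was 3.49 in Dclk1+ cells and 4.77 in Dclk1- cells, in places 37 and 8. The local background around the Gpx5 spot was about as bright as the spot itself on both tumor arrays, 523 around a spot of 512 in Dclk1+ tumor and 1599 around a spot of 1684 in Dclk1- tumor. Over spots within 2-fold of the same brightness, the median local background was 49.2% of the spot in Dclk1+ tumor and 59.2% in Dclk1- tumor, and 1.79% and 8.25% of those spots had a share as high as that of Gpx5. With the local background subtracted, the tumor minus normal difference of Gpx5 was -0.30 in Dclk1+ cells and 1.37 in Dclk1- cells.

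For the other members the local background was 13.8% (Wfdc18), 44.4% (Tff2), 54.4% (Gkn3) and 38.7% (Tenm4) of the spot in Dclk1+ tumor, and between 39.7% (Wfdc18) and 60.7% (Gkn3) in Dclk1- tumor. Subtracting it left tumor minus normal differences of 7.98 and 7.12 for Wfdc18, 6.05 and 2.58 for Tff2, 5.83 and 5.18 for Gkn3 and 4.68 and 4.98 for Tenm4 in Dclk1+ and Dclk1- cells. The brightest spot next to Wfdc18 reached 96.5 in Dclk1+ and 127 in Dclk1- tumor. The one next to Gkn3 was also brighter in tumor, with 2437 and 3226 in Dclk1+ and Dclk1- tumor, against 159.7 and 1103 in Dclk1+ and Dclk1- normal samples, and its part in the Gkn3 values was not tested. Next to Gpx5 and Tenm4 the brightest spots lay between 332 and 999.5 on the 4 arrays. A bright spot next to Tff2 (9397 and 12594 in Dclk1+ and Dclk1- tumor) was also bright in normal samples (4178 and 5330 in Dclk1+ and Dclk1- normal), where Tff2 itself was close to background.

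**Figure D2:**
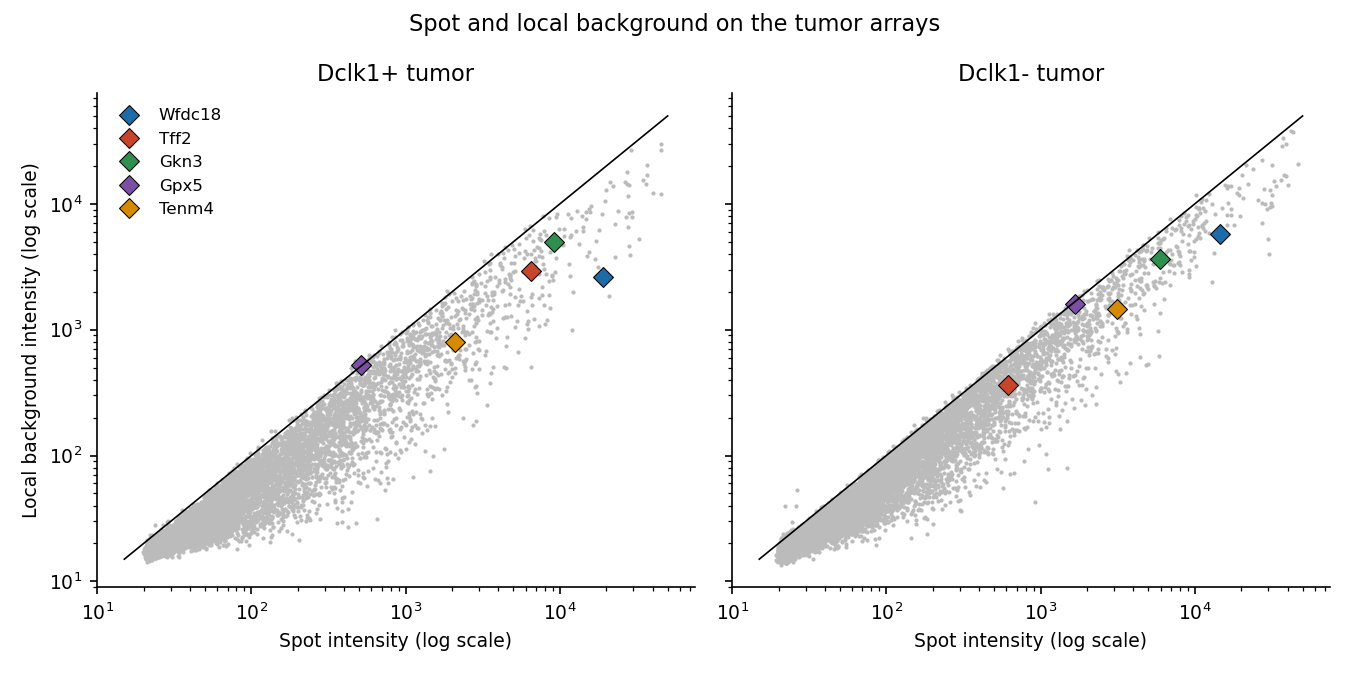
Local background (vertical axis) against spot intensity (horizontal axis), both log scales, for all genes (grey) and the 5 genes (diamonds) in Dclk1+ tumor (left) and Dclk1- tumor (right); the line marks equal values. Gpx5 lies on or close to the line in both panels, and the other 4 genes lie below it.

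All 5 members, which were chosen for their tumor signal, were at least 4-fold higher in Dclk1+ tumor than in Dclk1+ normal cells. In that comparison 1.17% of 12869 genes were that much higher and 0.427% lower. Likewise all 5 were at least 4-fold higher in Dclk1- tumor than in Dclk1- normal cells, where 1.18% of 12340 genes were higher and 1.3% lower. Nothing is read from these counts, since the rule used these arrays. In the Dclk1+ pair 73.2% of all genes 4-fold apart were higher in tumor, against 61.6% with scaling to the median, 58.6% with scaling to the 75th percentile, 47.2% in the authors' values and 46.8% with the local background subtracted. Ordered by the mean of the 2 differences among the 10280 genes above background on both tumor arrays, Wfdc18 came first with 7.94, Gkn3 in place 3 with 6.21, Tenm4 in place 5 with 5.27, Tff2 in place 6 with 5.23 and Gpx5 in place 11 with 4.13. The genes between them were Clu (7.08), Mmp7 (5.53), Ifitm1 (4.92), Retnlb (4.38), Arg1 (4.37) and Trf (4.19), and Lcn2 (4.08) came next after Gpx5. In bulk RNA, fewer cells with a transcript and less of it per cell cannot be told apart. On the linear scale of the authors' values the folds were larger, since no offset is added there: 1399.9 and 781 for Wfdc18, 2630.4 and 106 for Tff2, 236 and 80.1 for Gkn3, 119 and 154 for Gpx5 and 236 and 79.1 for Tenm4 in Dclk1+ and Dclk1- cells. That scale is not level between arrays: over all genes above background, its median tumor minus normal log2 difference was -0.40 in Dclk1+ and -0.50 in Dclk1- cells, against -0.03 and -0.02 after quantile normalization.

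**Figure D3:**
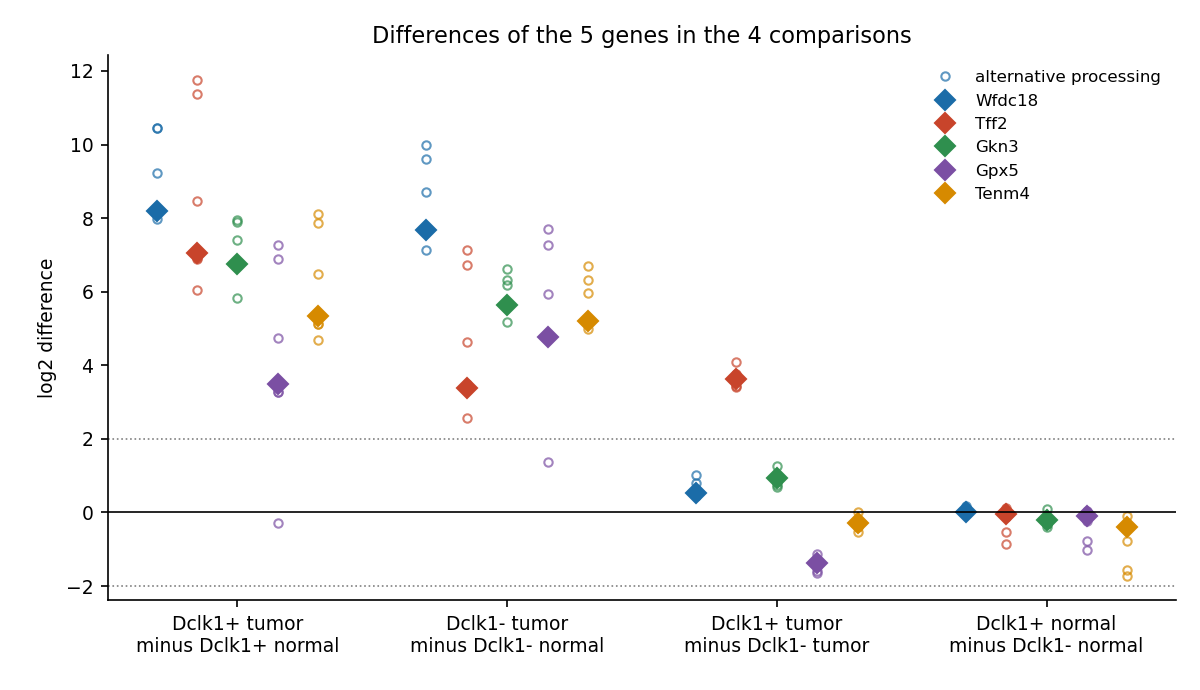
Log2 differences (vertical axis) of the 5 genes in the 4 comparisons; filled diamonds are the values reported, open circles the values under alternative processing, and dotted lines mark 4-fold. The tumor minus normal values lie above 4-fold for all 5 genes except Gpx5 with the local background subtracted, and in normal epithelium the Dclk1+ minus Dclk1- values stay within 4-fold.

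The Dclk1+ and Dclk1- tumor samples divided the members. Tff2 was higher in Dclk1+ tumor cells by 3.63 log2 units (17.1-fold in the authors' values), which placed it 11th of 10280 genes. Gkn3 was higher by 0.93 (2.38-fold) and Wfdc18 by 0.54 (2.03-fold), both short of 2-fold on the quantile-normalized scale. Tenm4 stood at -0.28 (1.01-fold in the authors' values, so its direction depends on the scale) and Gpx5 at -1.37 (0.454-fold). At 4-fold, 1 of 5 members was higher and 0 lower, against 0.426% and 0.295% of 12197 genes. At 2-fold, 1 was higher and 1 lower, against 1.77% and 2.14%. The members were chosen for their signal on these same tumor arrays, so nothing is read from these counts. The summed intensity of the tuft cell markers was 13214 in Dclk1+ and 424 in Dclk1- tumor cells, and its part in these differences was not tested. A difference of this kind could not be set against any spread between mice, and the Dclk1+ tumor sample pools 7 mice while the Dclk1- sample is from 1.

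In normal epithelium the members were dimmer than in tumor, and close to level between Dclk1+ and Dclk1- cells on the quantile-normalized scale. Gkn3 (59.1 and 73.4 in Dclk1+ and Dclk1- cells) and Tenm4 in Dclk1- cells (39.0) lay above the array median of about 25. The Dclk1+ minus Dclk1- difference was 0.02 for Wfdc18, -0.04 for Tff2, -0.19 for Gkn3, -0.09 for Gpx5 and -0.41 for Tenm4. None of the 5 was 4-fold higher or lower, against 1.61% and 2.16% of 12844 genes, on a scale that compresses dim signals. Nothing is read from that count. In the authors' values Tenm4 was at 0.340-fold in Dclk1+ normal relative to Dclk1- normal cells, Gpx5 at 0.586-fold and Tff2 at 0.691-fold. The local background of Tenm4 was 21.4 around a spot of 28.3 in Dclk1+ normal, and 38.2 around a spot of 53.9 in Dclk1- normal cells. With the local background subtracted, its log2 difference was -0.09, with the same offset.

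The change of this contrast between histologies was greatest for Tff2, whose difference was 3.68 log2 units more positive in tumor than in normal epithelium. It was 1.12 for Gkn3, 0.52 for Wfdc18, 0.13 for Tenm4 and -1.28 for Gpx5. In the authors' values it was 4.63 for Tff2, 1.56 for Gkn3, 0.84 for Wfdc18, 1.58 for Tenm4 and -0.37 for Gpx5. The order of the members after Tff2 therefore depended on the scale. Of the 52 genes at least 4-fold higher in Dclk1+ than in Dclk1- tumor cells, 4 were under 2-fold higher in Dclk1+ than in Dclk1- normal cells, and Tff2 was one of them. The others were Sct, which encodes secretin (2.67 in tumor and -0.18 in normal), Aqp5, a water channel of gland cells (2.34 and 0.01), and Pcolce2 (2.28 in tumor), which was not above background in either normal sample. Tff2 and Aqp5 were dim in both normal samples, where the offset keeps differences small. Little can therefore be read from this count for Tff2, Aqp5 or Pcolce2. Sct was bright in normal cells (6275 and 5113 in Dclk1+ and Dclk1- normal) and dimmer in tumor (908 and 80.8 in Dclk1+ and Dclk1- tumor). Its tumor minus normal differences were -2.25 and -5.10 in Dclk1+ and Dclk1- cells, whereas those of Tff2 were 7.06 and 3.39. In tumor Aqp5 was short of 4-fold with scaling to the median (1.97), and Pcolce2 with the local background subtracted (1.42).

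**Figure D4:**
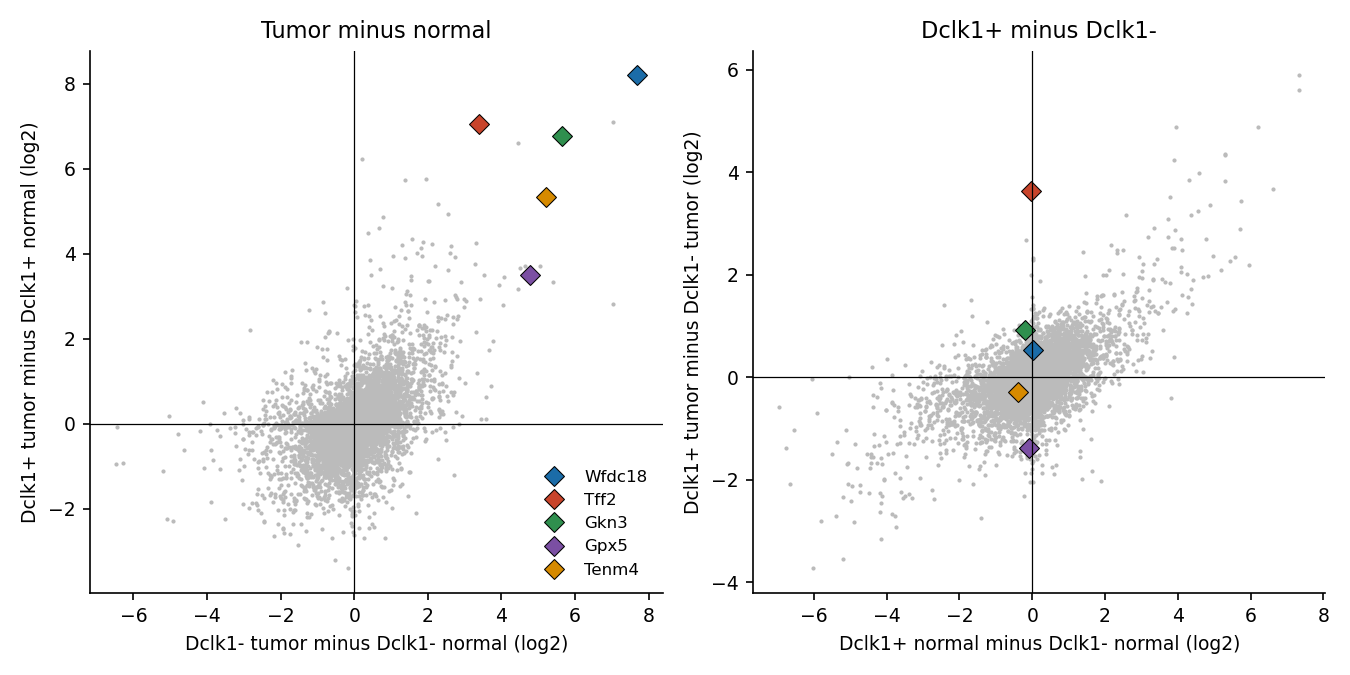
Left, tumor minus normal log2 differences in Dclk1+ cells (vertical) against Dclk1- cells (horizontal); right, Dclk1+ minus Dclk1- differences in tumor (vertical) against normal epithelium (horizontal). Grey points are genes above background on at least 1 array and diamonds the 5 genes; the axes of a panel share no array, and Tff2 stands at 3.63 in tumor and -0.04 in normal epithelium on the right.

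Relatives of the members were described in the same comparisons. Among 9 WAP four-disulfide core genes other than Wfdc18 that were above background in the Dclk1+ pair, 1 was at least 4-fold higher in tumor and 0 lower (median 0.04); among 8 in the Dclk1- pair, 1 was higher and 0 lower (median 0.23). Over all genes the medians were -0.03 and -0.02, and 1.17% and 1.18% were at least 4-fold higher in the Dclk1+ and Dclk1- pairs. A list of this size holds few or none at that rate, and nothing is read from these counts. The higher WAP gene was Wfdc2, a secreted protein of mucosal epithelia. It had 412 and 294 in Dclk1+ and Dclk1- tumor cells, against 15.6 and 17.4 in Dclk1+ and Dclk1- normal cells (log2 differences 2.51 and 2.29). Slpi, the secretory leukocyte protease inhibitor, had 89.1 and 49.0 in Dclk1+ and Dclk1- tumor, against 116 and 97.6 in Dclk1+ and Dclk1- normal cells.

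The other trefoil factors followed their own patterns. Tff1, the peptide of gastric pit cells, had 369 in Dclk1+ and 131 in Dclk1- tumor cells, against 45.4 and 39.2 in Dclk1+ and Dclk1- normal cells. Its tumor minus normal differences were 1.95 and 1.02, and 0.14 and 0.29 with the local background subtracted. Tff3, the trefoil factor of goblet cells, had 4644 in Dclk1+ and 15386 in Dclk1- tumor cells, against 5037 and 63010.0 in Dclk1+ and Dclk1- normal cells, so that Dclk1- normal cells were the brightest and Tff3 stood at -1.98 in Dclk1+ relative to Dclk1- tumor cells, where Tff2 stood at 3.63. Of the other gastrokines, Gkn1 was between 6.38 and 13.3 in all 4 samples, and Gkn2 was above background only in Dclk1- tumor (5.95).

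Of 5 glutathione peroxidases other than Gpx5 above background in the Dclk1+ pair, 0 were 4-fold higher or lower in tumor. Of 4 in the Dclk1- pair it was also 0. Over all genes 1.17% and 1.18% were 4-fold higher and 0.427% and 1.3% lower in the Dclk1+ and Dclk1- pairs. Lists of this size hold few or none at such rates, and nothing is read from these counts. Gpx6, the closest relative of Gpx5 in the family, had 49.0 in Dclk1+ and 40.1 in Dclk1- tumor cells, against 9.47 and 3.30 in Dclk1+ and Dclk1- normal cells (0.62 and 0.68). Gpx2, the gastrointestinal enzyme, had 73.6 in Dclk1+ and 65.6 in Dclk1- tumor cells, against 8.90 and 236 in Dclk1+ and Dclk1- normal cells (0.91 and -1.12), and it was 4-fold lower in Dclk1+ than in Dclk1- normal cells (-2.03, and -1.43 with the local background subtracted). Tenm4 was the only one of 4 teneurins that could be matched to a probe. Of 6 teneurin binding partners, 3 were above background in the Dclk1+ pair and 0 of them 4-fold apart. Nothing is read from that count either. Adgrl2, a latrophilin, had 180 in Dclk1+ and 122 in Dclk1- tumor cells, against 11.7 and 25.9 in Dclk1+ and Dclk1- normal cells (1.63 and 1.13).

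Other genes of the gastric lineages differed among themselves. Of 20 above background in the Dclk1+ pair, 3 were at least 4-fold higher in tumor and 0 lower (median 0.01), and of 20 in the Dclk1- pair 3 were higher and 0 lower (median 0.09), against 1.17% and 1.18% of all genes higher in the Dclk1+ and Dclk1- pairs. They were Aqp5, Vsig1 and Ctse in Dclk1+ cells, and Vsig1, Ctse and Anxa10 in Dclk1- cells. Aqp5 had 1308 in Dclk1+ and 188 in Dclk1- tumor cells, against 13.98 and 12.2 in Dclk1+ and Dclk1- normal cells (4.15 and 1.83). Vsig1, a junction protein of gastric epithelium, had 643 and 186 in Dclk1+ and Dclk1- tumor cells and was not above background in either normal sample, which makes it at least 10.2-fold and at least 3.96-fold higher (it was counted at measured differences of 3.37 and 2.04, which were 2.40 and 0.96 with the local background subtracted). Ctse, the aspartic protease cathepsin E, had 475 and 450.3 in Dclk1+ and Dclk1- tumor cells, was not above background in Dclk1+ normal cells and had 8.90 in Dclk1- normal cells, so it was at least 7.51-fold higher in the Dclk1+ pair and 2.98 log2 units higher in the Dclk1- pair. Anxa10, an annexin, had 369 and 737 in Dclk1+ and Dclk1- tumor cells, against 181 and 6.53 in Dclk1+ and Dclk1- normal cells (0.88 and 3.71).

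Among products of mature gastric cells, Muc5ac, the pit cell mucin, reached at most 5.04 on any array, Pgc, a pepsinogen, 8.87, and Atp4a, the proton pump subunit of parietal cells, 5.05. The intrinsic factor gene Cblif has a probe that was above background on no array. Lipf, the gastric lipase, had 39.2 and 41.7 in Dclk1+ and Dclk1- tumor cells, against 73.7 and 79.7 in Dclk1+ and Dclk1- normal cells. Ghrl, the ghrelin gene, had 7.79 and 7.89 in Dclk1+ and Dclk1- tumor cells, against 9.99 and 128 in Dclk1+ and Dclk1- normal cells. Muc6, the mucin that neck cells secrete with Tff2, had 84.9 and 60.8 in Dclk1+ and Dclk1- tumor cells, against 124 and 134 in Dclk1+ and Dclk1- normal cells (-0.21 and -0.56).

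**Figure D5:**
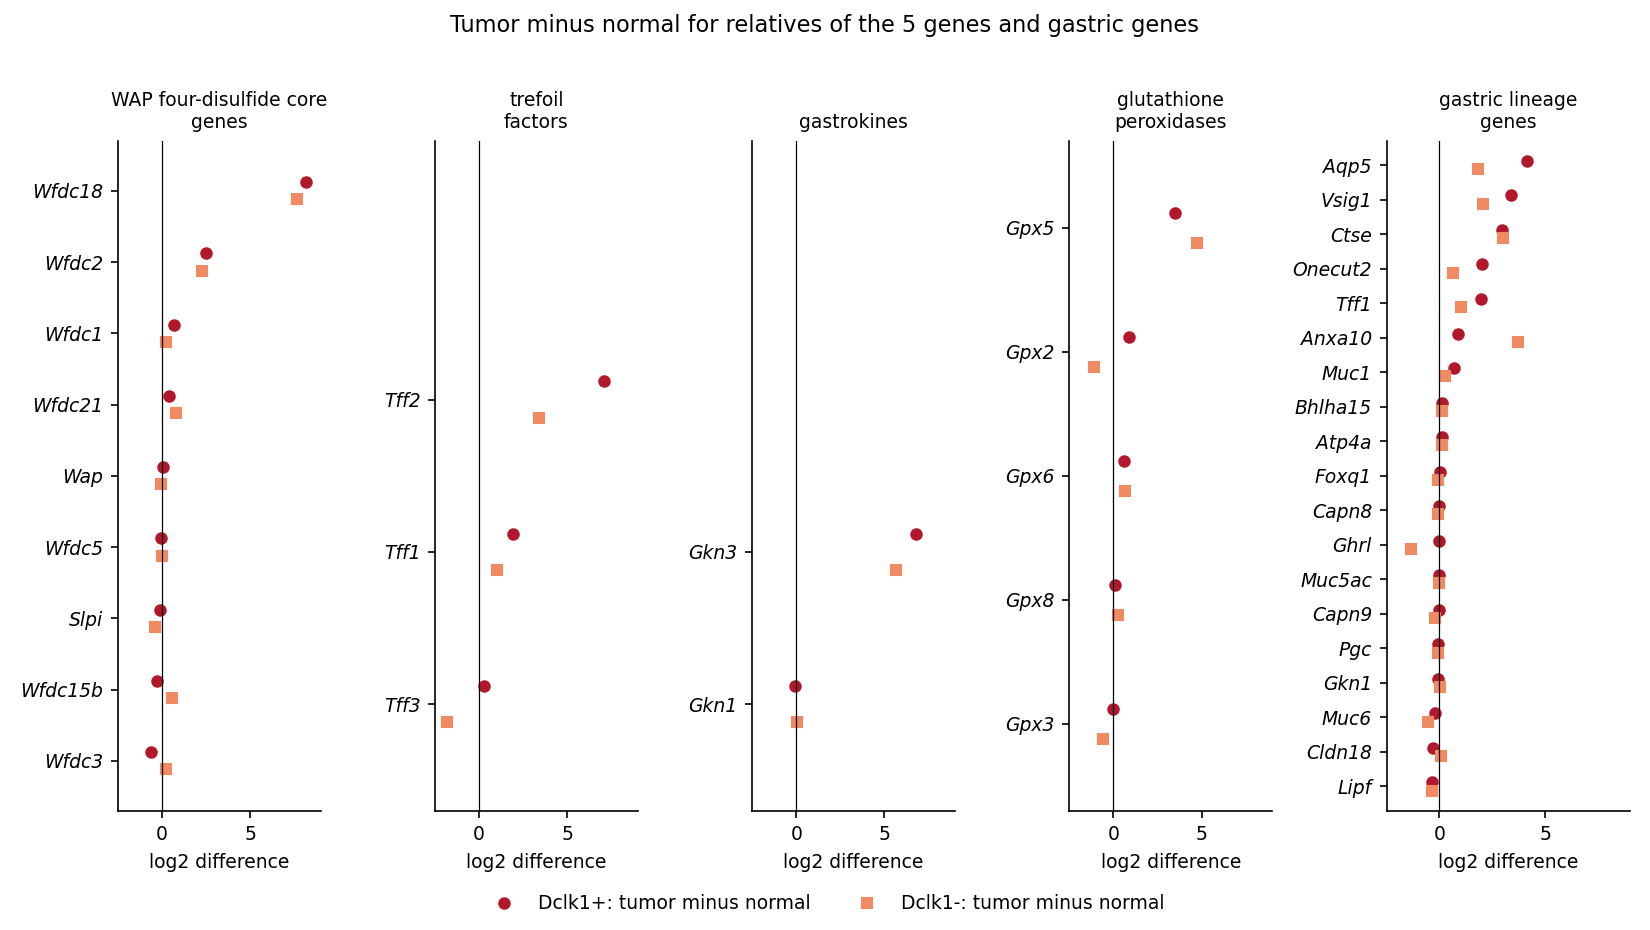
Tumor minus normal log2 difference (horizontal axes) of genes in 5 lists, 1 gene a row, in Dclk1+ cells (circles) and Dclk1- cells (squares), for genes above background on at least 1 array of each pair. Wfdc18, Tff2, Gkn3 and Gpx5 head their families; Vsig1 and Ctse, which were below background in 1 or more normal samples, are drawn at their measured difference and not at their bound.

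Gpx5 is known from the epididymis and Wfdc18 from the mammary gland. Of 10 epididymis genes above background in the Dclk1+ pair, 0 were 4-fold higher or lower in tumor, and of 7 in the Dclk1- pair also 0. With 1.17% and 1.18% of all genes 4-fold higher, a list of this size holds few or none at that rate, and nothing is read from these counts. Lcn10, an epididymal lipocalin, had 46.3 and 25.2 in Dclk1+ and Dclk1- tumor cells, against 47.4 and 37.4 in Dclk1+ and Dclk1- normal cells. Of 5 milk genes above background in the Dclk1+ pair and 4 in the Dclk1- pair, 0 were 4-fold higher, from which nothing is read either. Csn2 lay between 8.97 and 21.4 and Wap between 3.64 and 9.33 in all 4 samples, and Xdh, an oxidase that is also an enterocyte enzyme, was 4-fold lower in Dclk1- tumor than in Dclk1- normal cells (-3.23). Of 10 pancreatic acinar genes on the array, 4 were above background in the Dclk1+ pair and 5 in the Dclk1- pair. In each pair 1 of them, Cela1, was 4-fold higher in tumor, against 1.17% and 1.18% of all genes, and nothing is read from that count. Cela1 had 375 and 323 in Dclk1+ and Dclk1- tumor cells, against 10.8 and 12.4 in Dclk1+ and Dclk1- normal cells. Its differences were 2.47 and 2.48, though 1.56 and 1.34 with the local background subtracted. Cpa1, Prss2, Ctrb1, Pnlip and Cel have probes but were not above background on any array.

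The genes with the most similar profile were sought by the distance between the 4 log2 values, each gene centred on its own mean, among the genes above background on both tumor arrays. Clu, the chaperone clusterin, was closest to Wfdc18 (0.90) and to Gkn3 (1.02), with 14492 and 8689 in Dclk1+ and Dclk1- tumor cells, against 35.4 and 9.65 in Dclk1+ and Dclk1- normal cells. Its tumor minus normal differences were 7.11 and 7.05, and 4.55 and 4.99 with the local background subtracted. In that setting Wfdc18 was at 7.98 and 7.12, so the nearness of Clu to Wfdc18 depends on the setting. Gkn3 was closest to Tff2, though at a distance of 2.15, followed by Aqp5 (2.42) and the laminin chain Lamb2 (2.47). Retnlb, a resistin-like protein of goblet cells, was closest to Gpx5 (0.25) and to Tenm4 (1.23), and Lcn2, a secreted iron-binding protein, was the next for Gpx5 (0.29) and near Tenm4 (1.30). Bex1 followed for Gpx5 (0.57), and Tenm4 (1.27) and Wfdc18 (1.76) followed Clu for Gkn3. With the local background subtracted, the tumor minus normal differences in Dclk1+ and Dclk1- cells were -0.30 and 1.37 for Gpx5, against 2.79 and 4.35 for Retnlb, 1.61 and 2.40 for Lcn2 and 2.42 and 1.67 for Bex1, so the nearness of these genes to Gpx5 depends on that setting. With 4 arrays such a distance describes these samples only.

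Markers of other cells also differed between tumor and normal samples, and their part in the members' values was not tested. The summed intensity of 5 fibroblast and smooth muscle genes was 246 in Dclk1+ and 611 in Dclk1- tumor cells, against 52.7 and 45.0 in Dclk1+ and Dclk1- normal cells, with Vim at 92.5 and 343 in Dclk1+ and Dclk1- tumor cells, against 22.2 and 15.2 in Dclk1+ and Dclk1- normal cells, and Col1a1 at 4.65 or less on all arrays. Acta2, of smooth muscle and myofibroblasts, had 119 and 191 in Dclk1+ and Dclk1- tumor cells and was not above background in normal cells, so it was at least 2.64-fold and at least 4.03-fold higher. The sum of 6 macrophage and neutrophil genes was 454 and 525 in Dclk1+ and Dclk1- tumor, against 370.1 and 168 in Dclk1+ and Dclk1- normal cells. Adgre1, which defines macrophages, has a probe that was above background on no array. Most of both tumor sums came from S100a8, a neutrophil gene. It had 295 and 418 in Dclk1+ and Dclk1- tumor cells, against 105 and 71.9 in Dclk1+ and Dclk1- normal cells (1.15 and 2.04). In Dclk1+ and Dclk1- cells Ptprc stood at -0.65 and 0.22, Cd68 at -0.17 and 0.02 and Csf1r at -0.02 and -0.21. S100a9 stood at 0.29 and 0.65, and the list medians were -0.02 and 0.22. The sum of 4 T and B cell genes was at most 13.97 on any array, with Cd3e above background on none. That of 3 endothelial genes was at most 35.3, with Pecam1 and Cdh5 above background on none. Of 3 Paneth cell genes the sum was 13069 and 16280.3 in Dclk1+ and Dclk1- tumor, against 146 and 3878 in Dclk1+ and Dclk1- normal cells, most of it Mmp7 in the tumor samples. Of 5 goblet genes it was 8494 and 26559 in Dclk1+ and Dclk1- tumor, against 7844 and 165921 in Dclk1+ and Dclk1- normal cells. Within that list Spdef, a factor of secretory cells, was higher in tumor (2.36 and 1.00 in Dclk1+ and Dclk1- cells), and Clca1 stood at -0.91 and -6.29.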

How the data were processed

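Total RNA of 4 sorted cell samples was amplified, labelled with Cy5 and hybridised to 1 one-colour array each, per the labels' protocols. Per the file headers, the scanner files hold, at 635 nm, a median intensity for every spot and another for the background beside it, with scans at several gains joined by straight-line fits; the sources used here give neither image software nor annotation build. The authors' deposited series table holds intensity on a linear scale: set against the spots, each column follows the spots linearly after a constant near the blank mean is taken off, and runs in the direction of brightness. Its column medians are 25.0 and 24.99 for the Dclk1+ and Dclk1- tumor samples, and 25.0 and 25.01 for the Dclk1+ and Dclk1- normal samples, and what the authors did to centre it is not stated.

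From the 23473 probes, spots were corrected with normexp (offset 50, limma 3.58.1, R 4.3.3) without the local background, dropping spots the scanner marked as not OK (3 in the Dclk1- tumor array, 1 in the Dclk1- normal array), then normalized by quantiles and expressed in log2. The platform table named 16631 probes. Symbols were updated to RefSeq (GRCm38.p6), of which 12622 were current and 3947 synonyms of 1 gene; the probe with the highest mean spot was used for the 229 genes with several. Counts are of genes 4-fold or 2-fold apart with a signal over background on 1 or both arrays; a gene above background on 1 array is given as at least so many fold. With 1 array in each group no test was possible, and precision is limited by how few arrays there are.

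The members and the gene lists were chosen with earlier results of these data known. From the lists of relatives and of tissues, genes 4-fold apart in any comparison were named or, failing that, the brightest, together with the 3 genes nearest to each member. Further genes of these lists, and the single genes of the cell type markers, were chosen after their values were seen. There were 9 alternatives: offset 16, plain subtraction, local background, median and 75th percentile scaling, the authors' values, a 3 SD limit, a 2-fold threshold and the dimmer probe.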

Additional observations from a re-analysis of the deposited data

Results flagged for a closer look

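For Tff2 and Gkn3 the Dclk1+ minus Dclk1- difference pointed in opposite directions in tumor and in normal epithelium. Tff2 was at 3.63 in tumor and -0.04 in normal epithelium, so the differences were 3.68 apart, and Gkn3 was at 0.93 and -0.19, so they were 1.12 apart. With 1 array in each group the difference between histologies was not tested. The normal spots of Tff2 were close to background, and the sign in normal epithelium was not the same under every alternative for either gene: the range was -0.86 to 0.11 for Tff2 and -0.40 to 0.09 for Gkn3.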

How the results depend on the processing

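No paired analysis was possible because each group has 1 array. With no replicate spread, a value counted as changed where it moved by over 1.5 times. The 3 SD limit and the dimmer probe could not change a member's difference. The limit acts only on the background call, and each member has 1 probe. Of 160 values of single members under alternatives, with those settings included, 8 had the other sign. One of them was a difference over 2-fold: Gpx5 in Dclk1+ tumor against Dclk1+ normal cells was -0.30 with the local background subtracted, against 3.49; the cause was not tested. The other 7 were of differences under 2-fold, for Wfdc18, Tff2, Gkn3 and Gpx5 in Dclk1+ against Dclk1- normal cells and for Tenm4 in Dclk1+ against Dclk1- tumor cells. A further 39 values moved by over 1.5 times. The 4-fold counts of members held under every alternative except that the local background left 4 of 5 in each tumor against normal comparison, and that the 2-fold threshold gave 2 in place of 1 for Dclk1+ against Dclk1- tumor. Within tumor, Tff2 ranged from 3.42 to 4.09, Gkn3 from 0.69 to 1.25, Wfdc18 from 0.46 to 1.02, Gpx5 from -1.65 to -1.14 and Tenm4 from -0.53 to 0.02.

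Counts over all genes depend on how dim signals are handled. For Dclk1+ tumor against Dclk1+ normal, Dclk1- tumor against Dclk1- normal, Dclk1+ against Dclk1- tumor and Dclk1+ against Dclk1- normal, 205, 307, 88 and 484 genes were 4-fold apart. They were 378, 535, 160 and 755 with offset 16, 1624, 1769, 947 and 1879 in the authors' values, 1730, 1845, 1197 and 2064 when the blank mean was plainly subtracted, and 1090, 1371, 477 and 1488 at 2-fold. The local background moved the count of Dclk1+ against Dclk1- tumor to 167. The share of higher genes in the first comparison was 73.2%, and 47.2% with the authors' values and 46.8% with the local background subtracted; in Dclk1+ against Dclk1- tumor it was 59.1%, and 44.3% with median scaling. Faint signals limit the members' values in normal epithelium, where Tff2 and Gpx5 are a few blank SDs over the blanks.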
